A study of Mus musculus with 9 samples.

Results

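The BCL2 family is a group of related proteins that decides whether the outer membrane of mitochondria is opened during programmed cell death. The members studied were all probe sets annotated to exactly one symbol of a list of 10 genes: the death-restraining Bcl2, Bcl2l1 and Mcl1, the membrane-opening Bax and Bak1, and the BH3-only genes Bcl2l11, Bid, Bad, Bmf and Bik. Of these, 9 genes were measured, by 33 of the 45037 probe sets tested, and they are 9 of the 18193 genes that had such a probe set. Bax is not analysed here. Bcl2l11 and Mcl1 had 5 and 6 probe sets and Bad and Bak1 had 2 each.

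Bax and Bak1 form pores in the outer mitochondrial membrane, which release cytochrome c and lead to caspase activation. Bcl2, Bcl2l1 (Bcl-xL) and Mcl1 bind and restrain them. The BH3-only proteins respond to stress and either block these restrainers or activate the pore formers directly, and much of this control acts on protein stability and phosphorylation, which RNA levels do not show.

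RNA was measured in 3T3-L1 adipocytes, fat cells differentiated in culture from a mouse embryonic fibroblast line, on Affymetrix mouse arrays with 1 array per sample. The 3 groups of 3 arrays, which the labels call biological replicates, had received linoleic acid (LA, the control), conjugated linoleic acid (CLA) or phenformin. Phenformin, a biguanide, slows mitochondrial respiration and by that route turns on the energy sensor AMPK. The series asked how AMPK and prostaglandins take part in the response to CLA. All groups are the same cell line with no genotype change, and the labels used here give no dose, time, CLA isomer, or statement on whether phenformin dishes also held LA, so the treatments are not known to be matched. Levels are the authors' RMA values on the log2 scale. Each gene is read from its brightest probe set, that of highest mean level. Differences are log2 fold changes ± SE from limma over all 9 arrays, with adjusted p by the Benjamini-Hochberg method over 45037 probe sets and a threshold of 0.05, and n = 3 arrays per group throughout. The words rose and fell are kept for differences that passed this threshold.

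Arrays correlated at 0.986 to 0.996 within groups and at 0.963 to 0.991 between groups. LA replicate 3 had the lowest 99th percentile (11.62 against up to 12.45) and lay more than 1 log2 unit below both other LA arrays for 190 genes and above both for 77. Phenformin replicate 2 lay that far below both other phenformin arrays for 36 genes and above both for 1. For phenformin replicate 3 these counts were 44 and 9, and for CLA replicate 3, against the other CLA arrays, 44 and 30. In this paragraph ± gives the SD of 3 arrays. For beta-actin, the signal near the 3' end exceeded that near the 5' end by 1.28 ± 0.39 on LA arrays, 0.53 ± 0.10 on CLA arrays and 0.56 ± 0.09 on phenformin arrays, a gap that widens when RNA is degraded. For pyruvate carboxylase the gap was 5.35 ± 0.43, 4.02 ± 0.63 and 3.95 ± 0.60, so both were wider in LA. All 7 measured adipocyte markers were above background in each group, with Fabp4 at 14.14 ± 0.54 and Lpl at 13.91 ± 0.51 in LA. Their summed level was 15.57 to 16.50 in LA, 16.29 to 16.43 in CLA and 16.30 to 16.42 in phenformin. In CLA 1 of 7 rose, Cidec (0.98), and 1 of 7 fell, Pparg (-1.25, limma adjusted p = 0.00122). In phenformin 1 of 7 rose, again Cidec (0.77), while Pparg had -0.58 (adjusted p = 0.0619). Of 6 preadipocyte or fibroblast markers, 5 rose in CLA and 4 in phenformin, from a summed level of 13.15 to 13.30 in LA to 14.55 to 14.83 in CLA and 14.52 to 14.76 in phenformin. The sixth, Cd34, was not above background in any group. Beside each marker count here, 12.6% of all genes rose and 7.58% fell in CLA, and 13.7% and 5.11% in phenformin. In such bulk RNA, fewer cells of a type and less RNA per cell cannot be told apart, and the part of these markers in the results was not tested. Of 7 macrophage, 5 endothelial and 5 muscle markers, 0 rose in either comparison with LA and 1, Adgre1, fell in phenformin (limma adjusted p = 0.0498). Adgre1 lay at or under background on 2 of 3 LA arrays and on all 3 phenformin arrays. The macrophage markers Ptprc, Itgam and Mrc1 were not above background in any group. Cd68, Csf1r and Lyz2 were above it in each group, and Cd68 differed by 0.69 in CLA (adjusted p = 0.0554).

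In cells given CLA, Mcl1, Bcl2l1, Bid and Bmf were higher than in cells given LA by their brightest probe sets, with log2 fold changes of 1.01, 0.57, 0.59 and 0.91. No gene of the family fell by its brightest probe set. For Bmf another probe set, 1454880_s_at, fell (-0.73, adjusted p = 0.006), so its direction is not settled. The count is 4 of 9 genes, beside a background in which 20.2% of all 18193 genes were called, 12.6% higher and 7.58% lower. Under phenformin, Bcl2 and Mcl1 rose, by 0.90 and 0.70, which is 2 of 9 genes beside a background of 18.8% called, 13.7% higher and 5.11% lower. That share is close to the background and is not a result about the family. Between phenformin and CLA, 0 of 9 genes passed in limma, beside 6.3% of all genes (3.95% higher and 2.35% lower), and 3 had an unadjusted p below 0.05.

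Over all 33 probe sets, 11 rose and 1 fell in CLA compared with LA, beside 16.5% of all probe sets called, 10.1% higher and 6.37% lower. Under phenformin 5 rose and 3 fell, beside 16.4% called, 11.5% higher and 4.96% lower. None of the 33 passed between phenformin and CLA, beside 4.55% called, 2.87% higher and 1.68% lower, with 6 at an unadjusted p below 0.05. The median log2 fold change of the 9 genes was 0.57 in CLA against LA and 0.27 in phenformin against LA, while the medians over all genes were 0.05 and 0.01. The comparisons with LA share the 3 LA arrays, so their values stand side by side and are not independent.

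The arrays of CLA and LA did not overlap for 6 of 9 genes, which held for 32.9% of all genes, and for 18 of 33 probe sets, against 28.9%. Those of phenformin and LA did not overlap for 4 of 9 genes, against 34.9%, and for 12 of 33 probe sets, against 31.9%. Those of phenformin and CLA did not overlap for 4 of 9 genes, against 27.1%, and for 10 of 33 probe sets, against 21.6%. Mcl1 and Bid stayed called in CLA when any 1 of the 9 arrays was left out, whereas the count of 4 genes fell to 2 without LA replicate 1, CLA replicate 1 or CLA replicate 2, as Bcl2l1 and Bmf no longer passed. With the 3' to 5' gap of pyruvate carboxylase as a covariate, 9 of the 12 probe set calls in CLA and 5 of the 8 in phenformin were lost. The calls that held were those of Mcl1 1448503_at, Mcl1 1416881_at and Bmf 1458325_x_at in CLA, and of Mcl1 1416881_at, Mcl1 1456243_x_at and Bcl2l11 1426334_a_at in phenformin. Bcl2 1437122_at in CLA (-1.57, adjusted p = 0.0155) and Bmf 1458325_x_at in phenformin (1.24, adjusted p = 0.0383) newly passed. The lost calls kept their sign, and several kept about their size: Bcl2 1457687_at had 0.94 in phenformin (adjusted p = 0.0649), Mcl1 1448503_at 0.65 in phenformin (0.168), Bcl2l1 1426191_a_at 1.35 in CLA (0.0614) and Bcl2l11 1426334_a_at 0.94 in CLA (0.0509). Quantile normalization ended the CLA calls of Bcl2l1 1420888_at (0.42, adjusted p = 0.0512), Bcl2l1 1420887_a_at (0.78, 0.0513), Bid 1417045_at (0.37, 0.0577), Mcl1 1416880_at (0.24, 0.14) and Bcl2 1422938_at (0.36, 0.0668), and the phenformin call of the last (0.27, 0.166).

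**Figure D1:**
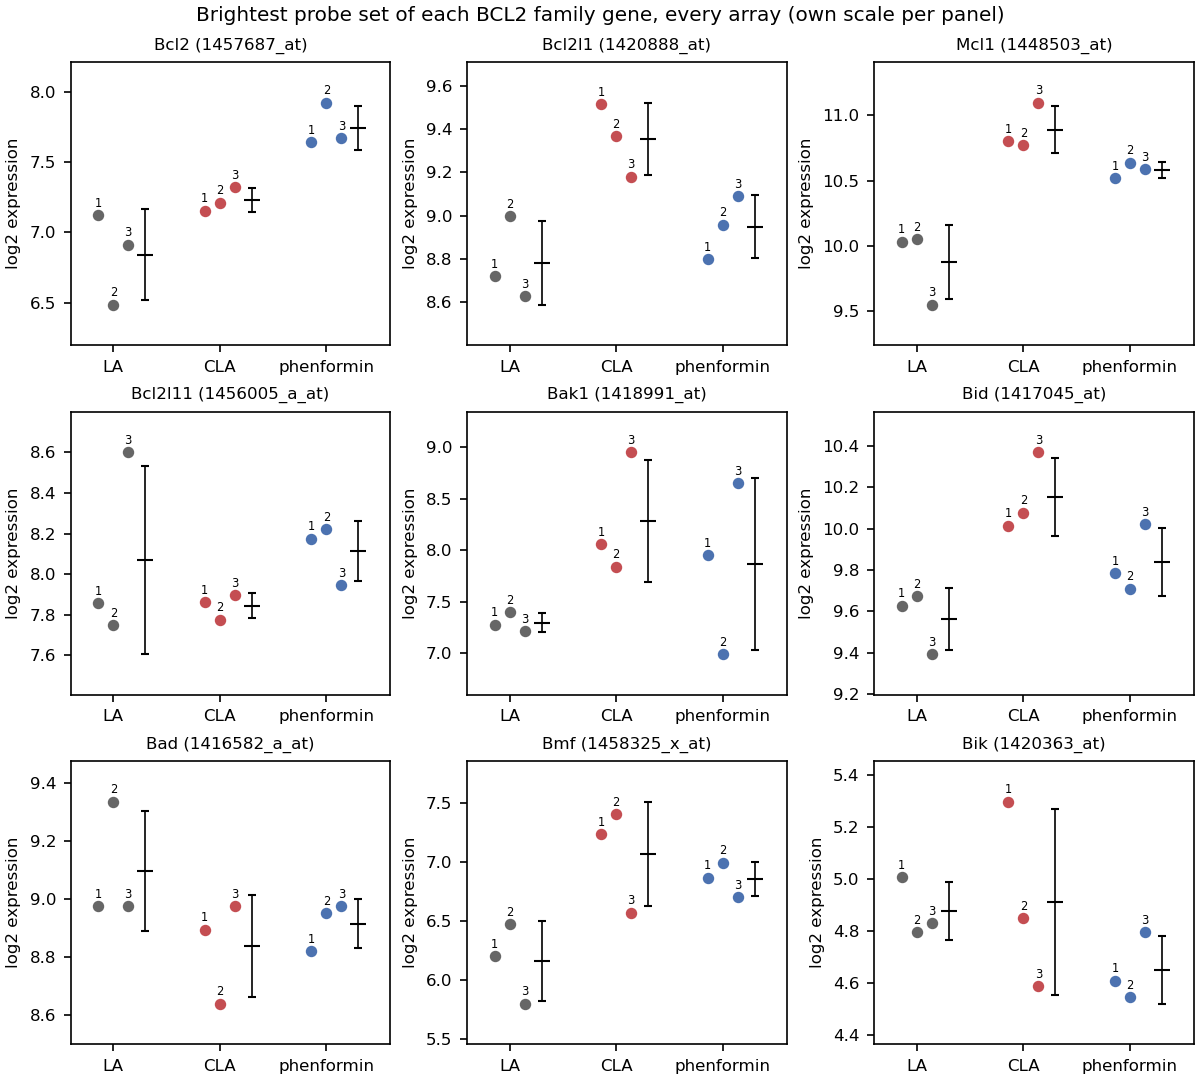
Log2 expression of the brightest probe set of each of the 9 measured BCL2 family genes, one panel per gene with its own scale, with a numbered point per array (LA grey, CLA red, phenformin blue) and the group mean ± SD of 3 arrays as bars. The 3 CLA points of Mcl1 lie between 10.77 and 11.10, above all LA points, and Bik lies between 4.54 and 5.30 with overlapping groups.

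The sequence before the transcription start is shown for Mcl1, whose rise was the largest among the brightest probe sets in CLA. It is also shown for Bcl2l11 and Bcl2, whose windows hold the FOXO motif and the CREB and ATF core motif, respectively. These are the 250 bases upstream of the start, read 5' to 3' on the gene's strand from RefSeq's GRCm38.p6 table, at chr3:95658471-95658720 (plus strand) for Mcl1, chr2:128125788-128126037 (plus strand) for Bcl2l11 and chr1:106714291-106714540 (minus strand) for Bcl2. Capitals mark the matched motif: in Bcl2l11 the FOXO motif TGTTTAC read on the opposite strand, and in Bcl2 the CREB and ATF core motif TGACG. The Mcl1 window holds none of the motifs searched and has no capitals.
Mcl1: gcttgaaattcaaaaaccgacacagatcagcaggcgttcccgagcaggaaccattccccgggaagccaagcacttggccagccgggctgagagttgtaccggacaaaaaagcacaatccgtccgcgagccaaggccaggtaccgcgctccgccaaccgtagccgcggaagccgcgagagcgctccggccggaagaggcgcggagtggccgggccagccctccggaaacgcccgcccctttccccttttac
Bcl2l11: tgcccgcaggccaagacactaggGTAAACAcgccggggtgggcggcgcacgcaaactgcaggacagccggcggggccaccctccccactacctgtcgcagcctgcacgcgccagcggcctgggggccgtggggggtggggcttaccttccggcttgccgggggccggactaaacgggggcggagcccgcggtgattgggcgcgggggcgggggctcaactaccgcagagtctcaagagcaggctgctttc
Bcl2: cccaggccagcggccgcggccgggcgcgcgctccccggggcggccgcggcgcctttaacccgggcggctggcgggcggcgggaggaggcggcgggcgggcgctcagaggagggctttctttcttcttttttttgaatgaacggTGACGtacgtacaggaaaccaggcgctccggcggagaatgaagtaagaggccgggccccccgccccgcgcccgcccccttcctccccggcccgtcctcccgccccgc

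The motifs were searched on both strands: TGTTTAC for FOXO, TGACG for CREB and ATF, TGATGNAAN for the ATF4 and CHOP composite, TTCNNNGAA for STAT and CACGTG for the MYC E-box. Of 32851 windows of this length, 3.17% held the FOXO motif, 17.8% the CREB and ATF core motif, 3.44% the composite, 7.02% the STAT motif and 6.02% the E-box. Among 14 windows of family genes, 1 held the FOXO motif and 2 held the core motif, those of Bcl2 and Bmf. The match in Bcl2l11 lies 227 bases before the start, that in Bcl2 107 bases, and those in Bmf 146 and 16 bases. The other motifs, among them the ATF4 and CHOP composite, had 0 matches in these windows, which says only that these letters are not within them. The Bmf window is not shown, and whether any factor acts at a match was not tested. Bcl2l11 has a further window for another start, and Bik had no window in the table.

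Mcl1, a gene that restrains cell death, rose in both comparisons with LA by its brightest probe set, but its probe sets did not all move alike. Mcl1 encodes a short-lived protein that holds Bak1 and the BH3-only proteins. Its brightest probe set, 1448503_at, read 10.03, 10.05 and 9.55 in the LA arrays, 10.80, 10.77 and 11.10 in the CLA arrays and 10.52, 10.64 and 10.59 in the phenformin arrays. All 6 treated arrays lay above all LA arrays, and the CLA arrays lay above the phenformin arrays. The rise in CLA was 1.01 ± 0.15, or 2.02-fold (limma adjusted p = 0.00135). Under phenformin the rise was 0.70 ± 0.15, or 1.63-fold (adjusted p = 0.0109). CLA and phenformin differed by -0.31 (95% interval -0.65 to 0.03, adjusted p = 0.357).

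The probe sets of Mcl1 fell into 2 sets that did not move together. The probe set 1416881_at read 8.36, 8.42 and 8.03 in LA, 9.76, 9.72 and 10.14 in CLA and 9.66, 9.80 and 9.79 in phenformin. It was higher in all treated arrays, by 1.60 ± 0.15 in CLA (adjusted p = 6.18e-05) and 1.48 ± 0.15 in phenformin (adjusted p = 0.000135), and CLA and phenformin overlapped. The probe set 1416880_at rose in CLA by 0.43 ± 0.11 (adjusted p = 0.0213), a call that ended without LA replicate 1 or CLA replicate 3, at adjusted p = 0.0618 and 0.0546. Over the 9 arrays, which fall in 3 groups, the brightest probe set correlated with these at 0.96 and 0.90. Its correlations with the 3 probe sets of the class _x_at, whose probes may also bind other transcripts, were -0.17, -0.20 and -0.31.

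One of these, 1437527_x_at, read 9.96, 9.88 and 9.91 in LA, 9.74, 9.99 and 9.96 in CLA and 9.11, 9.55 and 9.44 in phenformin. The phenformin arrays were the lowest and overlapped neither other group. It fell under phenformin by 0.55 on the log2 scale (SE 0.13, adjusted p = 0.0182), and 1456243_x_at fell by 0.52 (SE 0.16, adjusted p = 0.0427). The third, 1456381_x_at, had -0.66 ± 0.21 (adjusted p = 0.0573) and passed at that size without CLA replicate 2 or 3, at 0.0307 and 0.0318. Phenformin differed from CLA by -0.53 ± 0.13 for 1437527_x_at (adjusted p = 0.0538), which passed without LA replicate 3, at 0.0476. Against LA, the phenformin fall of 1437527_x_at did not pass without LA replicate 1 or phenformin replicate 1, at adjusted p = 0.0611 and 0.0722. That of 1456243_x_at did not pass without LA replicates 1 or 2, CLA replicate 2 or phenformin replicates 1 or 2. Its adjusted p was then 0.0602 to 0.158. With the mean of all 6 probe sets, the phenformin difference of Mcl1 was 0.10 (adjusted p = 0.667), so the call rests on which probe set stands for the gene, while both of the treated-high probe sets 1448503_at and 1416881_at were called in CLA under every alternative that was run on them.

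Bcl2, the founding member and a restrainer of pore formation, was highest under phenformin. Its brightest probe set, 1457687_at, read 7.12, 6.48 and 6.91 in LA, 7.15, 7.21 and 7.32 in CLA and 7.64, 7.92 and 7.67 in phenformin. The groups did not overlap and stood in the order LA, CLA, phenformin, with LA replicate 1 just under the lowest CLA array. The rise under phenformin was 0.90 ± 0.16, or 1.87-fold (limma adjusted p = 0.00368). For the neighbours in this order, CLA exceeded LA by 0.39 ± 0.16 (adjusted p = 0.143) and phenformin exceeded CLA by 0.52 ± 0.16 (95% interval 0.16 to 0.88, adjusted p = 0.119). The latter passed when only these 2 groups were fitted, at adjusted p = 0.0495.

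A second Bcl2 probe set, 1422938_at, read 6.15, 6.39 and 6.09 in LA, 6.77, 6.61 and 6.53 in CLA and 6.67, 6.53 and 6.68 in phenformin. Both treated groups lay above LA and overlapped each other. It rose by 0.43 ± 0.12 in CLA (adjusted p = 0.0368) and by 0.42 ± 0.12 in phenformin (adjusted p = 0.0417). Both lie near the threshold. The CLA call ended without any 1 of LA replicates 1 and 3, CLA replicates 1 and 2 and the 3 phenformin arrays, at adjusted p of 0.0503 to 0.138. The phenformin call ended without any 1 of LA replicates 1 and 3, CLA replicate 2 and the 3 phenformin arrays, at 0.0541 to 0.129. Another, 1437122_at, had -0.58 ± 0.33 in CLA and 0.12 ± 0.33 in phenformin, with adjusted p = 0.278 and 0.871, while its CLA value with the 3' to 5' gap as a covariate was -1.57 (adjusted p = 0.0155). The last 2, 1443837_x_at and 1440770_at, had values from 3.55 to 4.73, close to the background levels of 3.68 to 4.20, and no call. With the mean of its 5 probe sets, the phenformin difference of Bcl2 was 0.26 (adjusted p = 0.219).

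Bcl2l1, which encodes the restrainer Bcl-xL and, by alternative splicing, a shorter protein that promotes death, rose in CLA. The brightest probe set, 1420888_at, read 8.72, 8.997 and 8.63 in LA, 9.51, 9.37 and 9.18 in CLA and 8.80, 8.96 and 9.09 in phenformin. The CLA arrays were above every other array, and LA and phenformin overlapped. The rise was 0.57 ± 0.14, or 1.49-fold (adjusted p = 0.019), and phenformin differed from LA by 0.17 ± 0.14 (95% interval -0.14 to 0.48, adjusted p = 0.496). The CLA call ended without LA replicate 1, CLA replicate 1 or CLA replicate 2, at adjusted p = 0.0677, 0.0832 and 0.0593.

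A dimmer Bcl2l1 probe set, 1426191_a_at, read 4.98, 5.51 and 5.20 in LA, 6.34, 6.86 and 6.17 in CLA and 6.33, 5.41 and 6.05 in phenformin. Its CLA arrays were above all LA arrays, and phenformin replicate 2 lay within the LA range while the other two did not. The rise in CLA was 1.23 ± 0.25, or 2.34-fold (adjusted p = 0.00719). Phenformin exceeded LA by 0.70 ± 0.25 (adjusted p = 0.087), and by 0.96 without phenformin replicate 2 (adjusted p = 0.0256). The probe set 1420887_a_at also rose in CLA, by 0.90 ± 0.24 (adjusted p = 0.0271), a call that ended without LA replicate 1, CLA replicate 1 or CLA replicate 2, at adjusted p = 0.103, 0.0947 and 0.0826. The fourth, 1426050_at, was not above background in any group and had no call.

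**Figure D2:**
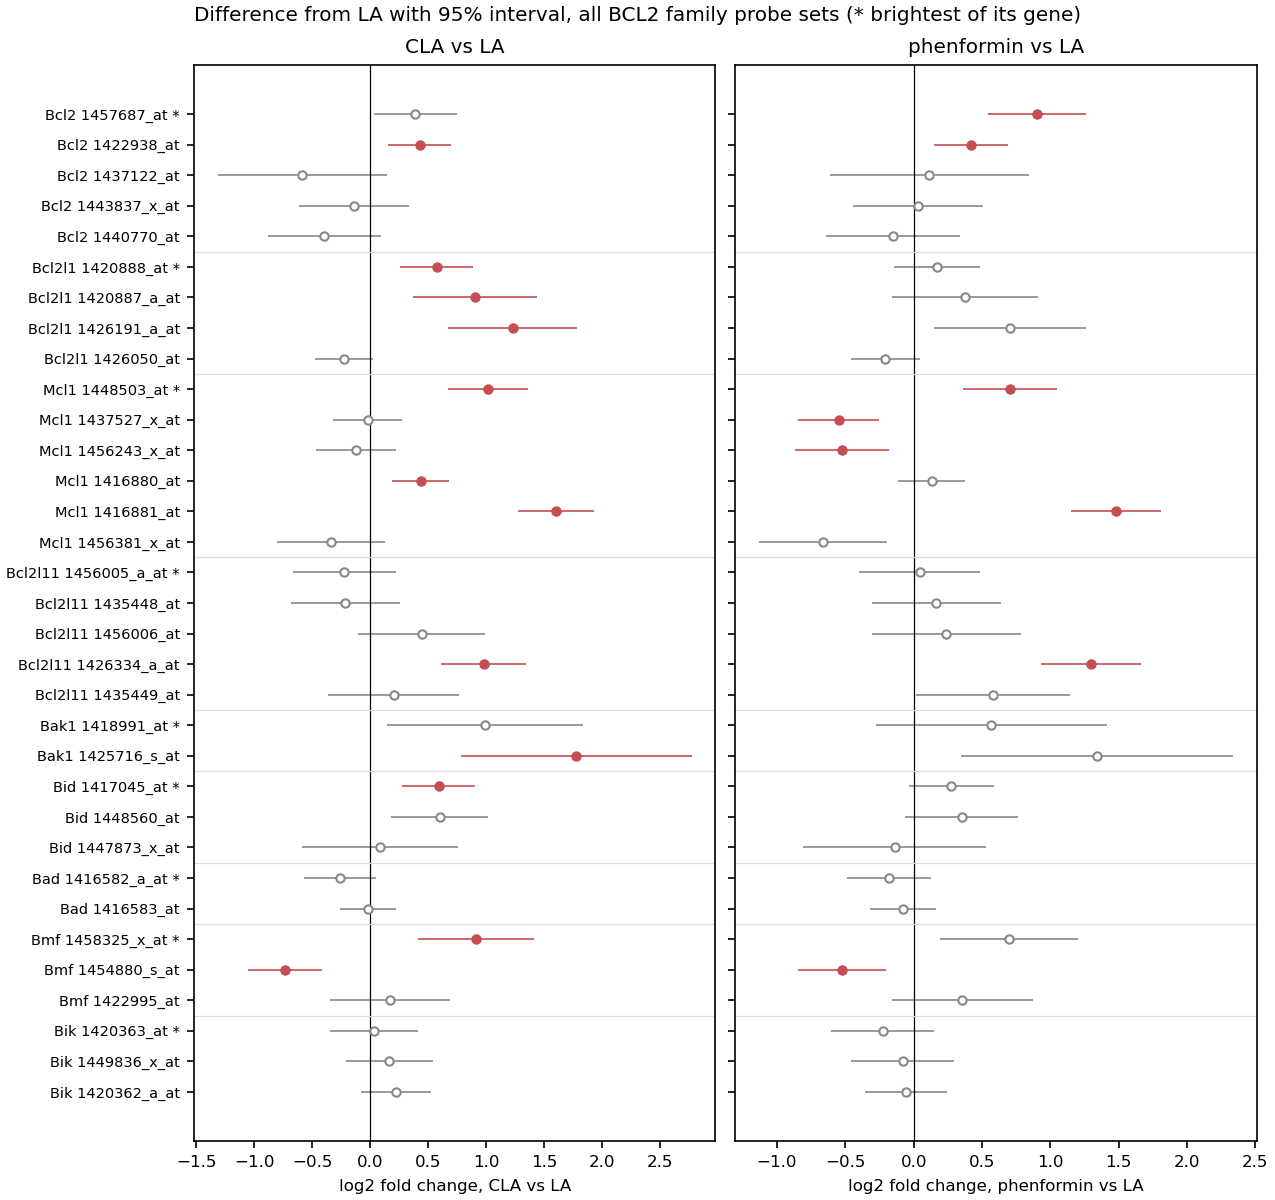
Log2 fold change with its 95% interval for all 33 probe sets of the family, CLA against LA in the left panel and phenformin against LA in the right, grouped by gene, with the brightest probe set of each gene starred and filled red points at an adjusted p under 0.05. The Mcl1, Bcl2l11 and Bmf rows hold points on both sides of 0, and the largest rise of the left panel is the 1.77 of Bak1 1425716_s_at.

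Bak1, the measured pore former, was higher on the CLA arrays by both of its probe sets, but 1 phenformin array stood apart. The brightest probe set, 1418991_at, read 7.28, 7.40 and 7.21 in LA, 8.06, 7.84 and 8.95 in CLA and 7.95, 6.99 and 8.66 in phenformin. All CLA arrays lay above LA, while phenformin replicate 2 lay below every LA array and its 2 companions above them. CLA exceeded LA by 0.99 ± 0.38 (95% interval 0.15 to 1.83, adjusted p = 0.112), which did not pass. It passed at the same size without phenformin replicate 2, which enters this comparison through the shared spread, at adjusted p = 0.044, and with the mean of both probe sets, 1.38 (adjusted p = 0.0245). Phenformin exceeded LA by 0.57 ± 0.38 (adjusted p = 0.378). With the 3' to 5' gap as a covariate the differences of 1418991_at were 0.15 in CLA (adjusted p = 0.884) and -0.32 in phenformin.

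The other Bak1 probe set, 1425716_s_at, whose class _s_at can bind several transcripts, read 5.63, 5.24 and 5.37 in LA, 7.02, 7.06 and 7.48 in CLA and 7.48, 5.39 and 7.38 in phenformin. Again all CLA arrays and 2 phenformin arrays were high, and phenformin replicate 2 was at the LA level. The rise in CLA was 1.77 ± 0.45, or 3.42-fold (adjusted p = 0.0215), and it ended without LA replicate 2, CLA replicate 1, CLA replicate 2 or CLA replicate 3, at adjusted p of 0.057 to 0.0699. Phenformin exceeded LA by 1.34 ± 0.45 (adjusted p = 0.0698). Without phenformin replicate 2 it exceeded LA by 2.02 (adjusted p = 0.000241). The same array was the lowest of its group for the preadipocyte or fibroblast markers Dlk1 (10.56 against 11.56 and 11.86), Col1a1 (10.70 against 11.82 and 11.95) and Thy1 (7.05 against 7.76 and 7.84). It was not the lowest for the markers Pdgfra (11.48 against 11.60 and 11.32) and Col3a1 (14.08 against 14.11 and 13.88). Whether the Bak1 and marker values of this array belong together was not tested.

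**Figure D3:**
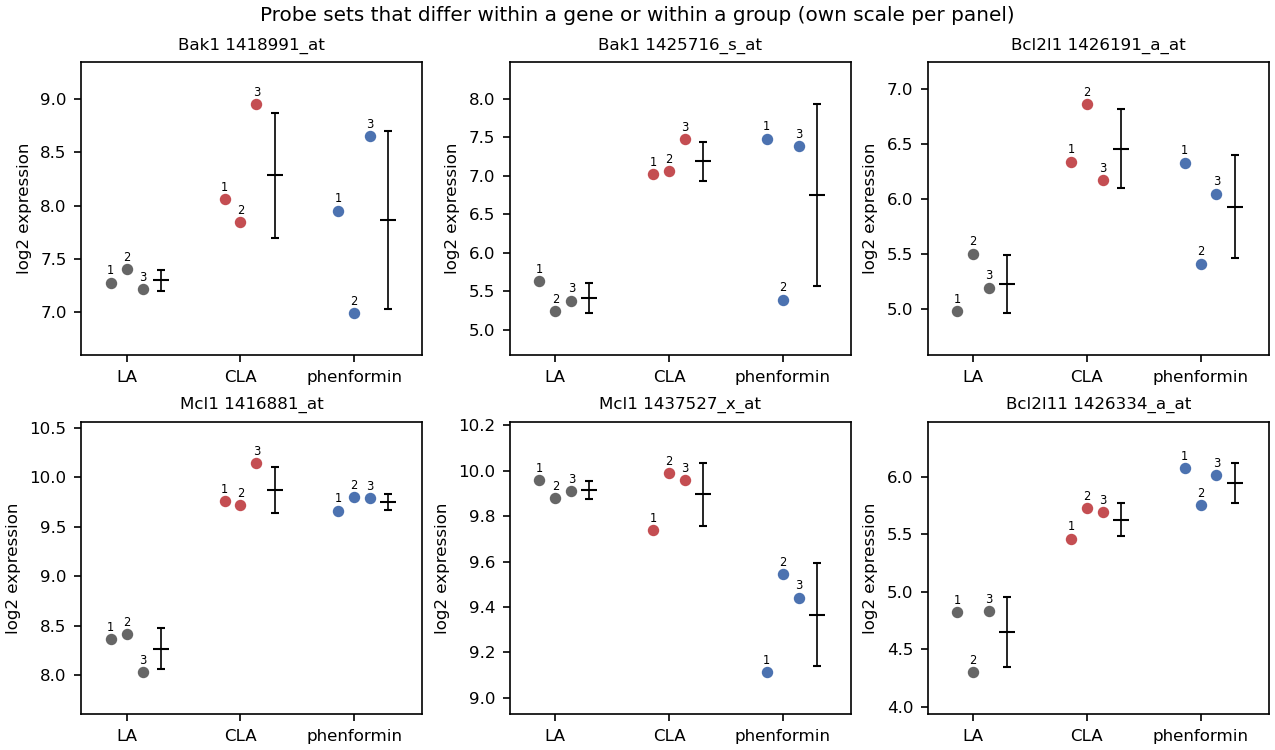
Log2 expression of 6 probe sets that differ within a gene or within a group, one panel each with its own scale, with a numbered point per array and the group mean ± SD of 3 arrays. Phenformin replicate 2 lies at 5.39 for Bak1 1425716_s_at, beside 7.48 and 7.38 on the other phenformin arrays, and Mcl1 1416881_at and 1437527_x_at differ in opposite directions under phenformin.

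The calls of the BH3-only genes against LA varied by probe set, and none of these genes passed between phenformin and CLA. Bid, whose protein is cut by caspase-8 and carries the signal of death receptors to mitochondria, rose in CLA. The probe set 1417045_at read 9.63, 9.67 and 9.39 in LA, 10.01, 10.08 and 10.37 in CLA and 9.78, 9.71 and 10.02 in phenformin. Both treated groups lay above LA without overlap, and phenformin replicate 3 reached the lowest CLA array. The rise in CLA was 0.59 ± 0.14, or 1.51-fold (adjusted p = 0.0161), and phenformin exceeded LA by 0.27 ± 0.14 (95% interval -0.04 to 0.59, adjusted p = 0.236). Phenformin differed from CLA by -0.32 ± 0.14 (adjusted p = 0.295). A second probe set, 1448560_at, had nearly the same size in CLA, 0.60 ± 0.19, at adjusted p = 0.054, and passed without phenformin replicate 3, at 0.0337. With the 3' to 5' gap as a covariate the CLA differences were 0.36 for 1417045_at (adjusted p = 0.298) and 0.06 for 1448560_at (adjusted p = 0.879). The third, 1447873_x_at, had no call, and the mean of the 3 gave 0.42 in CLA (adjusted p = 0.122).

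Bcl2l11 encodes Bim, a direct activator of the pore formers that is made in several spliced forms. Its brightest probe set, 1456005_a_at, read 7.86, 7.75 and 8.60 in LA, 7.86, 7.78 and 7.90 in CLA and 8.17, 8.22 and 7.95 in phenformin. LA replicate 3 was the highest array of all, and LA overlapped both treated groups. The phenformin arrays lay just above the CLA arrays, by 0.27 ± 0.20 on average (adjusted p = 0.555). The differences were -0.22 ± 0.20 in CLA (adjusted p = 0.519) and 0.04 ± 0.20 in phenformin (adjusted p = 0.922), with 95% intervals of -0.67 to 0.22 and -0.40 to 0.49.

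The probe set 1426334_a_at gave another picture of Bcl2l11. It read 4.82, 4.30 and 4.83 in LA, 5.46, 5.73 and 5.69 in CLA and 6.07, 5.75 and 6.01 in phenformin. The groups did not overlap and stood in the order LA, CLA, phenformin. It rose by 0.98 ± 0.16, or 1.97-fold, in CLA (adjusted p = 0.00241) and by 1.30 ± 0.16, or 2.46-fold, in phenformin (adjusted p = 0.000516). CLA and phenformin, neighbours in this order, differed by 0.32 ± 0.16 (95% interval -0.04 to 0.69, adjusted p = 0.374). Its correlation with the brightest probe set over the 9 arrays was 0.05, whereas 1435448_at correlated with the brightest at 0.91. Which spliced forms each probe set covers was not determined here. The remaining 3 had no call. Of these, 1456006_at, at 0.44 ± 0.25 in CLA (adjusted p = 0.276), passed without CLA replicate 3, at 0.71 (adjusted p = 0.0435), and 1435449_at, at 0.58 ± 0.25 under phenformin (adjusted p = 0.161), passed without LA replicate 3, at 0.92 (adjusted p = 0.00458).

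Bmf, a BH3-only protein held on the actin and myosin V motor by a dynein light chain, gave opposite calls by its probe sets. The brightest, 1458325_x_at, read 6.20, 6.47 and 5.80 in LA, 7.23, 7.40 and 6.57 in CLA and 6.86, 6.99 and 6.70 in phenformin. All treated arrays lay above LA. The rise in CLA was 0.91 ± 0.23, or 1.88-fold (adjusted p = 0.0196), and phenformin exceeded LA by 0.70 ± 0.23 (adjusted p = 0.0624), passing without LA replicate 2 or CLA replicate 3, at 0.0476 and 0.0221. The CLA call ended without LA replicate 1, LA replicate 3, CLA replicate 1 or CLA replicate 2, at adjusted p of 0.0532 to 0.0856. The probe set 1454880_s_at read 6.48, 6.39 and 6.76 in LA, 5.99, 5.71 and 5.73 in CLA and 6.11, 6.13 and 5.81 in phenformin. Here all treated arrays lay below LA.

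That probe set fell in CLA by 0.73 on the log2 scale (SE 0.14, adjusted p = 0.006) and under phenformin by 0.53 (SE 0.14, adjusted p = 0.0317). The phenformin fall did not pass without LA replicate 1, LA replicate 3 or any 1 of the phenformin arrays, at adjusted p of 0.0557 to 0.107. The 2 probe sets correlated at -0.77 over the 9 arrays, and the mean of all 3 Bmf probe sets differed between CLA and LA by 0.12 (adjusted p = 0.642). The direction of Bmf RNA is therefore not settled by these values. The third, 1422995_at, had no call.

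Bad, which is held inactive in the cytosol by 14-3-3 proteins when it is phosphorylated, did not pass in any comparison. The probe set 1416582_a_at read 8.98, 9.33 and 8.98 in LA, 8.89, 8.64 and 8.98 in CLA and 8.82, 8.95 and 8.98 in phenformin. The groups overlapped, and LA replicate 2 was the highest array. The differences from LA were -0.26 (95% interval -0.57 to 0.05, adjusted p = 0.256) in CLA and -0.18 (95% interval -0.49 to 0.13, adjusted p = 0.453) in phenformin. A difference of 1 log2 unit lies outside both intervals. Under quantile normalization both were -0.42 and passed, at adjusted p = 0.0399 and 0.0427. Its other probe set, 1416583_at, differed by -0.02 and -0.08.

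Bik, a BH3-only protein of the endoplasmic reticulum, lay near background. The probe set 1420363_at read 5.01, 4.79 and 4.83 in LA, 5.30, 4.85 and 4.59 in CLA and 4.61, 4.54 and 4.79 in phenformin, against background levels of 3.68 to 4.20. The CLA arrays overlapped both other groups, and the differences were 0.03 ± 0.17 in CLA and -0.23 ± 0.17 in phenformin (adjusted p = 0.921 and 0.441). The probe set 1420362_a_at was not above background in LA and phenformin, and the third, 1449836_x_at, had no call.

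By the pattern over 9 arrays in 3 groups, the genes most like Mcl1 were Nqo1, a quinone reductase, at r = 0.99, B3gnt2, a glycosyltransferase, at r = 0.99 and Ppt2, a lysosomal thioesterase, at r = 0.98. Their group means stood in the same order as those of Mcl1, at other levels. Nqo1 stood 1.63 higher in CLA and 1.17 higher in phenformin than in LA. For Bad, the member with the lowest difference in CLA, the most alike were Rnf26, Lins1 and 4933416I08Rik, at r = 0.94, 0.94 and 0.94. They are given as a description, since r was picked as the highest of 18193 genes.

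The wider cell death machinery was followed through 70 listed genes, of which 62 were measured. In CLA 17 of 62 rose and 7 fell, in phenformin 13 rose and 2 fell, and between phenformin and CLA 5 were higher and 2 lower under phenformin. The medians were 0.20, 0.26 and 0.08, beside 0.05, 0.01 and -0.03 over all genes. In these same comparisons 20.2%, 18.8% and 6.3% of all genes were called. By direction, 12.6% were higher and 7.58% lower in CLA, and 13.7% and 5.11% in phenformin. Between phenformin and CLA the shares were 3.95% and 2.35%. The counts of each list below stand beside these shares and are descriptions of short lists.

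**Figure D4:**
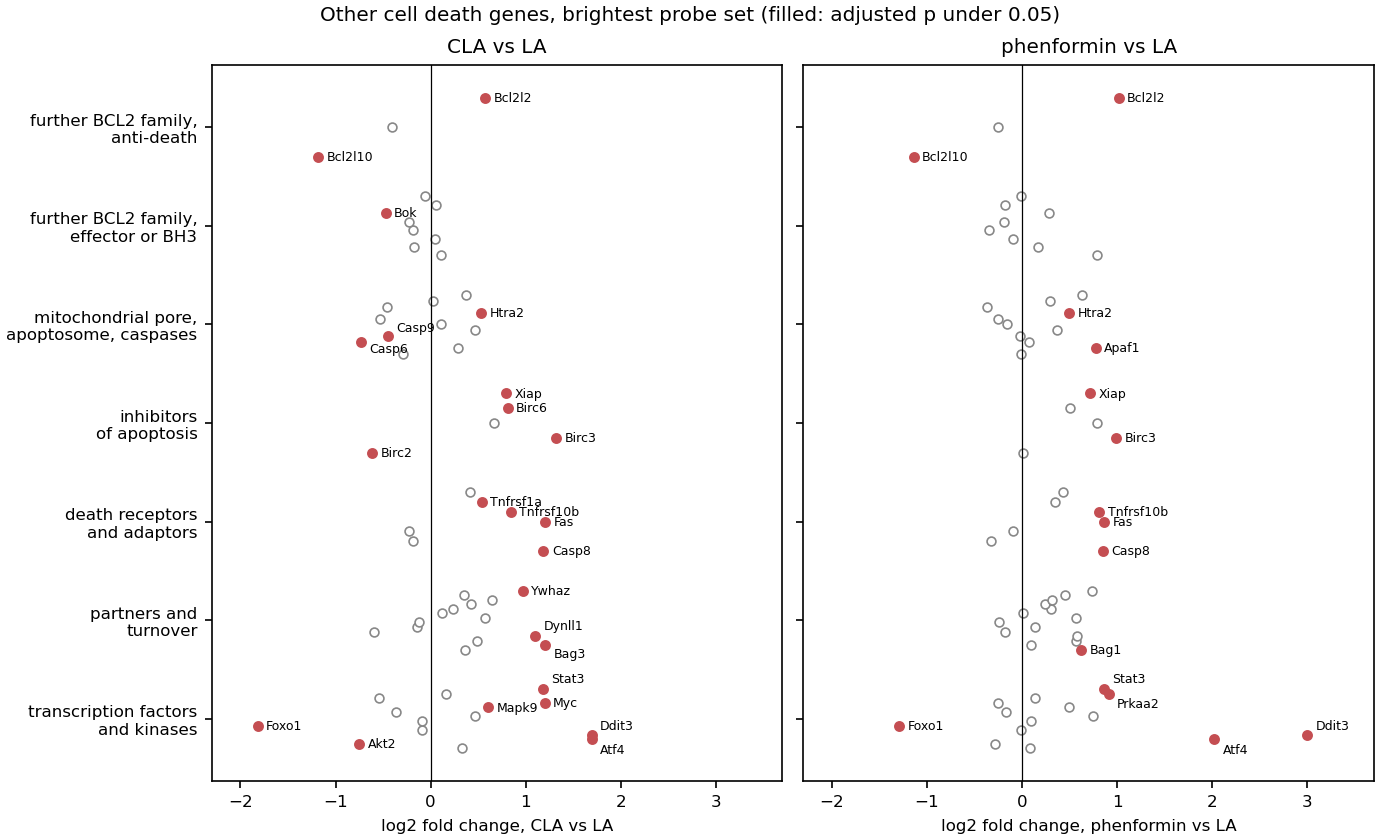
Log2 fold change of the brightest probe set of 62 other cell death genes in 7 lists, CLA against LA on the left and phenformin against LA on the right, with one point per gene, filled red and named where the adjusted p was under 0.05. Ddit3 and Atf4 lie farthest right in both panels and Foxo1 farthest left, at -1.82 and -1.29.

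Among 3 further restrainers of the family, 1 rose and 1 fell in each comparison with LA. Bcl2l10 read 5.81, 5.81 and 5.89 in LA, 4.88, 4.49 and 4.60 in CLA and 4.77, 4.72 and 4.60 in phenformin, with both treated groups below LA. It fell by 1.18 on the log2 scale in CLA (adjusted p = 0.000134) and by 1.14 in phenformin (adjusted p = 0.000211). Bcl2l2, which encodes Bcl-w, read 7.92, 7.92 and 8.06 in LA, 8.55, 8.66 and 8.43 in CLA and 9.16, 9.24 and 8.55 in phenformin, and every treated array was above LA. It rose by 1.02 ± 0.17 in phenformin (adjusted p = 0.00264) and by 0.58 ± 0.17 in CLA (adjusted p = 0.0445). The CLA rise ended without any 1 of the LA and CLA arrays or phenformin replicate 1, at adjusted p of 0.0509 to 0.144.

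Of 8 further effector or BH3-containing genes, 1 fell in CLA and 0 changed in phenformin against LA. Bok, an effector related to Bax and Bak1, fell in CLA by 0.47 (SE 0.14, adjusted p = 0.0397) and was 0.75 ± 0.14 higher in phenformin than in CLA (adjusted p = 0.0127). The former ended without any 1 of LA replicates 1 and 2, the 3 CLA arrays and phenformin replicates 1 and 2, at adjusted p of 0.0542 to 0.125, and the latter without CLA replicate 2 or phenformin replicate 2, at 0.0527 and 0.0558. Bbc3 (Puma), a strong BH3-only activator, had 0.78 ± 0.31 under phenformin (adjusted p = 0.117), and Pmaip1 (Noxa), the BH3-only partner of Mcl1, was not above background in any group.

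In the list of mitochondrial pore, apoptosome and caspase genes, 1 of 11 rose and 2 fell in CLA, while 2 rose in phenformin. Casp6, an executioner caspase, read 8.33, 8.34 and 8.30 in LA, 7.60, 7.46 and 7.70 in CLA and 8.32, 8.49 and 8.37 in phenformin. The CLA arrays stood below all others. It fell in CLA by 0.74 (SE 0.11, adjusted p = 0.00107) and was 0.81 ± 0.11 higher in phenformin than in CLA (adjusted p = 0.00267). Apaf1, the scaffold of the apoptosome, rose in phenformin by 0.78 ± 0.16 (adjusted p = 0.00843). Htra2, a mitochondrial protease that antagonises the inhibitors of apoptosis, rose by 0.53 ± 0.13 in CLA and 0.49 ± 0.13 in phenformin (adjusted p = 0.0158 and 0.0224). The CLA call ended without LA replicate 1 or CLA replicate 2 (0.0552 and 0.0614), and the phenformin call without LA replicates 1 or 3 or phenformin replicates 2 or 3 (0.0541 to 0.0738). Casp9 fell in CLA by 0.45 by its brightest probe set, while another of its probe sets rose by 0.71 (adjusted p = 0.0239 and 0.00399). The fall ended without LA replicate 1, CLA replicate 1 or CLA replicate 3, at 0.0561 to 0.0929.

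Of 5 inhibitors of apoptosis, which block caspases or mark proteins for degradation, 3 rose and 1 fell in CLA and 2 rose in phenformin. Birc3 (cIAP2) rose by 1.32 ± 0.15 in CLA and 0.99 ± 0.15 in phenformin (adjusted p = 0.000252 and 0.00156). Birc2 (cIAP1) fell in CLA by 0.61 (SE 0.12, adjusted p = 0.00566) and was 0.62 ± 0.12 higher in phenformin than in CLA (adjusted p = 0.0167), which ended without CLA or phenformin replicates 1 or 2, at 0.0582 to 0.0771. Xiap rose by 0.80 ± 0.21 and 0.72 ± 0.21 (adjusted p = 0.0276 and 0.0427). Its CLA call ended without LA replicate 2 or any 1 CLA array (0.0509 to 0.0889), and its phenformin call without any 1 array but LA replicate 1 (0.0511 to 0.136). Birc6 rose in CLA by 0.81, while a dimmer probe set of it fell by 0.54 (adjusted p = 0.00987 and 0.0365).

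Death receptors and their adaptors, the route that reaches mitochondria through Bid, had 4 of 7 genes higher in CLA and 3 in phenformin, with none lower. Beside this, 12.6% of all genes were higher and 7.58% lower in CLA, and 13.7% and 5.11% in phenformin. Casp8, the protease that cuts Bid, read 9.56, 9.57 and 9.36 in LA, 10.69, 10.93 and 10.43 in CLA and 10.59, 10.41 and 10.04 in phenformin. All treated arrays exceeded LA. It rose by 1.19 ± 0.17 in CLA and 0.85 ± 0.17 in phenformin (adjusted p = 0.000884 and 0.00653). The receptor Fas rose by 1.21 ± 0.22 and 0.87 ± 0.22 (adjusted p = 0.00366 and 0.0214), and its phenformin call ended without LA replicate 2 or phenformin replicate 3, at 0.0796 and 0.0618. The receptor Tnfrsf10b rose by 0.84 ± 0.15 and 0.81 ± 0.15 (adjusted p = 0.00368 and 0.00479), and Tnfrsf1a by 0.54 ± 0.11 in CLA (adjusted p = 0.00925). With the 3' to 5' gap as a covariate Casp8 kept both calls, whereas Fas had 0.67 and 0.30 (adjusted p = 0.149 and 0.59), Tnfrsf10b 0.76 and 0.73 (0.0773 and 0.117) and Tnfrsf1a 0.33 in CLA (0.235). Under quantile normalization Tnfrsf1a had 0.24 in CLA (adjusted p = 0.278) and Fas 0.64 in phenformin (0.0775).

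Among 14 direct partners and turnover factors of BCL2 proteins, 3 rose in CLA and 1 in phenformin. Bag3, a co-chaperone that binds Bcl2, read 9.15, 9.24 and 8.61 in LA, 10.13, 10.22 and 10.27 in CLA and 9.32, 8.70 and 9.27 in phenformin. It was high on the CLA arrays alone. It rose in CLA by 1.21 ± 0.20 (adjusted p = 0.00214) and was lower in phenformin than in CLA by -1.11 ± 0.20 (adjusted p = 0.0118), the latter at 0.0513 without CLA replicate 2. Dynll1, a dynein light chain that binds Bcl2l11 protein, rose in CLA by 1.10 ± 0.18 (adjusted p = 0.00225). Ywhaz, a 14-3-3 protein, rose in CLA by 0.97 ± 0.23 (adjusted p = 0.0155), at 0.0514, 0.0728 and 0.0648 without LA replicate 1, CLA replicate 1 and CLA replicate 2. Bag1 rose in phenformin by 0.62 ± 0.13 (adjusted p = 0.00732).

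Of 14 transcription factors and kinases that control the family, 5 rose and 2 fell in CLA, and 4 rose and 1 fell in phenformin. Ddit3 (CHOP), a stress factor that acts on Bcl2 and Bcl2l11, read 9.61, 9.75 and 9.68 in LA, 11.39, 11.36 and 11.38 in CLA and 12.51, 12.62 and 12.90 in phenformin. The 3 groups were far apart, with rises of 1.70 ± 0.12 in CLA and 3.00 ± 0.12 in phenformin (adjusted p = 1.18e-05 and 1.61e-06) and 1.30 ± 0.12 more in phenformin than in CLA (adjusted p = 0.000314). Atf4, which activates Ddit3 under stress, rose by 1.70 ± 0.12 and 2.02 ± 0.12 (adjusted p = 1.19e-05 and 7.8e-06). Foxo1, a factor that activates Bcl2l11 when insulin signalling is low, read 9.51, 9.52 and 9.21 in LA, 7.41, 7.55 and 7.82 in CLA and 8.09, 8.22 and 8.06 in phenformin. It was lowest in CLA and highest in LA. Foxo1 fell by 1.82 in CLA (SE 0.14, adjusted p = 1.81e-05) and by 1.29 in phenformin (SE 0.14, adjusted p = 0.000199).

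Myc, which is known to sensitise cells to death, rose in CLA by 1.20 ± 0.12 (adjusted p = 7.77e-05) and was lower in phenformin than in CLA by -1.45 ± 0.12 (adjusted p = 0.000155). Prkaa2, a catalytic subunit of AMPK, rose in phenformin by 0.91 ± 0.12 (adjusted p = 0.00058) and stood 0.75 ± 0.12 above CLA (adjusted p = 0.00631). For Gsk3b, a kinase that marks Mcl1 for degradation, dimmer probe sets were called in opposite directions in both comparisons with LA, 0.85 and -0.62 in CLA and 1.22 and -1.22 in phenformin, and the brightest had no call.

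With the 3' to 5' gap as a covariate, 8 of the 21 CLA calls and 6 of the 14 phenformin calls of the listed genes named above were lost, against 0 of the 7 between phenformin and CLA. Besides the receptors, Htra2 had 0.44 in CLA and 0.40 in phenformin (adjusted p = 0.197 and 0.294), and Xiap 1.12 and 1.06 (0.0504 and 0.08). In CLA, Birc2 had -0.65 (adjusted p = 0.0599), Bok -0.52 (0.165) and Casp9 -0.28 (0.338). In phenformin, Apaf1 kept its size of 0.78 at adjusted p = 0.12, and Bag1 had 0.72 (0.0651). Quantile normalization ended the CLA call of Bcl2l2 (0.43, adjusted p = 0.142) and the phenformin calls of Htra2 (0.27, 0.131) and Xiap (0.45, 0.0946).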

How the data were processed

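Total RNA of 9 samples was measured on 1 array each. The authors made the deposited log2 values with RMA, and the submitters' processing notes name R 2.9.0. Their limma tables hold log2 fold changes, score columns (log odds and moderated t) and p-values, per the file headers; the limma version is not given in the sources. They gave the same calls for 33 of 33 family probe sets and were used only for that check.

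The log2 values were fitted unchanged with limma 3.58.1 (lmFit and eBayes, R 4.3.3) over 9 arrays and 3 groups, after 64 control probe sets were left out of 45101, and p was adjusted over 45037 probe sets by Benjamini-Hochberg. The steps were tested on simulated data. A two-sided exact permutation test of 3 against 3 arrays cannot go below 0.1, so limma was used. Not above background means that all 3 arrays of the group read no more than the 95th percentile of 27 control probe sets for bacterial transcripts (3.68 to 4.20 per array). Probe sets were named by the array annotation where it gave 1 symbol.

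Named are all members, up to 4 called genes per list and comparison with the smallest adjusted p, further values where an outcome turned on them, and the 3 genes most correlated with the members of highest and lowest difference in CLA. The members and lists were chosen with earlier results of these data known. Bax, 8 listed genes and 2 markers are not analysed here. Promoter windows came from RefSeq's GRCm38.p6 table. Tables and figures used Python 3.11.15, pandas 2.3.3 and matplotlib 3.10.9. Deviations of same-numbered arrays correlated at -0.29 to -0.05 between LA and a treated group. Between CLA and phenformin they correlated at 0.09 to 0.58, and those of differently numbered arrays at -0.53 to 0.39. The pyruvate carboxylase gap fell from replicate 1 to 3 in each group, with 4.55, 4.20 and 3.33 in CLA and 4.50, 4.03 and 3.30 in phenformin. The labels name no pairs, so the main fit took none, and a replicate block was run only as an alternative. Alternatives were a replicate block, leaving out single arrays, the 2 groups alone, median centring, quantile normalization, no dim probe sets, an intensity trend with robust estimation, the mean of a gene's probe sets and the 3' to 5' gap of pyruvate carboxylase as a covariate. With 3 arrays a group, their number limits the precision.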

Additional observations from a re-analysis of the deposited data

How the results depend on the processing

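Of 2814 differences of single probe sets recomputed under an alternative, 2600 stayed on their side of the threshold, 159 no longer passed, 55 newly passed, and 0 were called in opposite directions. Of the 2600, 76 that passed in neither setting changed sign. The 3' to 5' gap as a covariate lowered the count of family genes called in CLA from 4 to 2 (Mcl1 and Bmf) and in phenformin from 2 to 1. That 1 is Bmf, newly called, while Bcl2 and Mcl1 lost their calls. The covariate lowered the count of family probe sets from 12 to 4 and from 8 to 4, and that of all probe sets from 7426 to 4900 and from 7401 to 3646; between phenformin and CLA it gave 1 family probe set in place of 0. The gap was wider in LA, so this covariate and the contrast with LA overlap. With the mean of a gene's probe sets, 0 family genes were called in phenformin. Fitting phenformin and CLA alone called 1 family gene, Bcl2, and 1 probe set. With the replicate number as a block, 1 family probe set, Bcl2 1437122_at, was called between phenformin and CLA (0.70, adjusted p = 0.0192), and 4, 3 and 0 family genes were called, Bmf being added in phenformin (0.70, adjusted p = 0.00988). In this fit Bcl2 1437122_at and Bid 1448560_at newly passed in CLA (-0.58 and 0.60) and Bak1 1425716_s_at in phenformin, while Bcl2 1422938_at lost both calls and Bmf 1454880_s_at its phenformin call; same-numbered arrays were not shown to be paired. Leaving out single arrays gave 2 to 5 family genes and 7 to 12 probe sets in CLA, 4 to 10 probe sets in phenformin, 0 to 1 between phenformin and CLA, 4 to 9 of the pathway genes there, 4788 to 8313 of all probe sets in CLA, and 820 to 3085 between phenformin and CLA. Median centring and quantile normalization moved the median difference of all probe sets by at most 0.04. Median centring ended the CLA calls of Bcl2 1422938_at (adjusted p = 0.055) and Mcl1 1416880_at (0.0514). It ended the phenformin calls of Mcl1 1456243_x_at (0.0642) and Xiap (0.0507), and Casp9 newly passed between phenformin and CLA (0.0406). The intensity trend ended the same Bcl2 and Mcl1 calls, the phenformin call of Bcl2 1422938_at and the CLA calls of Bcl2l2 and Bok (0.0502 to 0.0753). For dim members such as Bik, signal near background limits what could be detected.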
